A study of Mus musculus with 4 samples.

Results

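Cells that carried transcripts of both Ccr7, the receptor that guides dendritic cells along lymphatic vessels, and Fscn1, the actin-bundling protein fascin, were taken from single-cell libraries of EGFP+ Ly6G- cells sorted from hearts of CSF1R-EGFP reporter mice. A cell was kept with 500 to 40000 UMIs (unique molecular identifiers, each standing for 1 captured transcript) and more than 200 genes. Ccr7 Fscn1 cells were selected on their measured UMIs, at least 1 of Ccr7 and at least 2 of Fscn1. Of 41533 cells kept in 4 libraries, 137 met this rule. Ccr7 lies at chr11:99144196-99155077 (- strand) and Fscn1 at chr5:142960343-142973185 (+ strand) in mm10. The reporter mice were male and female C57Bl6J animals of 12 to 16 weeks. The baseline library pooled 3 hearts of mice that had no surgery. Infarct libraries 1, 2 and 3 each came from 1 heart taken 7 days after its left anterior descending (LAD) artery was tied off for good, with the remote zone cut away. Surgery, infarction and the cutting away of the remote zone came together in the infarct libraries, so their parts cannot be told apart. All 4 libraries hold the same reporter, whose EGFP follows the promoter of Csf1r, the receptor for macrophage colony-stimulating factor. A dendritic cell with little Csf1r activity may thus have stayed outside the sort.

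Dendritic cells take up antigen in tissue, mature, and then travel through lymphatic vessels to the draining lymph node, where they present peptides to T cells. On maturation they raise Ccr7, costimulatory molecules and cytoskeletal genes and lower the receptors used for uptake. NF-kB proteins, RelB among them, drive much of this programme, and the chemokines CCL17 and CCL22 attract T cells that carry CCR4.

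The promoters below belong to the chemokine genes Ccl22 and Ccl17, neighbours on chromosome 8, and to Nfkb2, which encodes the partner of RelB. They are shown because the results below describe these genes. Each holds 250 bases before and 50 after a transcription start, on the + strand of GRCm38.p6, from RefSeq. Capitals mark matches to the NF-kB motif GGGANNTTCC on either strand.
Ccl22, chr8:94745434-94745733: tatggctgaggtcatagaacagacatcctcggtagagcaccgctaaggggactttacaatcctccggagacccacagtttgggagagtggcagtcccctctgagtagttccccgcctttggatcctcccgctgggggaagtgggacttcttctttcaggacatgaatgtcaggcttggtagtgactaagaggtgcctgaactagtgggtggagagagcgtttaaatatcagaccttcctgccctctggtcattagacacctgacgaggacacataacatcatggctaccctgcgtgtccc
Ccl17, chr8:94810203-94810502: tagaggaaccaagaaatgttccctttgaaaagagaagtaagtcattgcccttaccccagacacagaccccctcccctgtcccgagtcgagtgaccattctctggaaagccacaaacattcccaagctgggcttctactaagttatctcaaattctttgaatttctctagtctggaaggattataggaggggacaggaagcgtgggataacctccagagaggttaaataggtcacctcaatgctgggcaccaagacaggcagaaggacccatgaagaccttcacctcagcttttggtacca
Nfkb2, chr19:46305445-46305744: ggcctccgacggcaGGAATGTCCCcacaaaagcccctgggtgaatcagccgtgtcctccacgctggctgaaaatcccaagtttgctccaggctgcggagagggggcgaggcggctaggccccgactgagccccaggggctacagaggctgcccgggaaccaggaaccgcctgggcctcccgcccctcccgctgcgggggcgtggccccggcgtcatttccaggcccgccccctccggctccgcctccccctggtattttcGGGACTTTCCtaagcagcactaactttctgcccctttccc
The printed Nfkb2 window held 2 matches, GGAATGTCCC and GGGACTTTCC, and the windows of Ccl22 and Ccl17 held none. RefSeq gives Nfkb2 3 start sites, and the printed window is the one with the most matches. The window at chr19:46304487-46304786 held none, and the one at chr19:46305680-46305979 held the same GGGACTTTCC. The window of Fscn1 (chr5:142960105-142960404) held none either. Of 32851 promoter windows in the RefSeq table, 482 held a match (1.47%). A match describes letters in a window and is not a binding site, and no match says only that these letters are not in this window. Ccr7 and Relb had no entry in the table.

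The label of mature dendritic cells was set beside other markers, from a list chosen with earlier results of these data known. The counts below therefore describe the cells. Of 10 markers that the rule did not use (Ccl22, Cacnb3, Il4i1, Tmem123, Tbc1d4, Socs2, Nudt17, Cd200, Serpinb6b and Il15ra), the median Ccr7 Fscn1 cell carried 8, and all 137 carried at least 3. Among the 1034 cells with at least 2 Cd209a UMIs and no Ccr7, called Cd209a cells below, 6.38% carried at least 3. Cd209a encodes a lectin of type 2 dendritic cells, and it gave 1 UMI in 1 of the 137 cells. Xcr1 or Clec9a, which mark type 1 dendritic cells, gave a UMI in 4. The B cell gene Cd79a gave none, which allows up to 2.19% of cells with a UMI and does not limit the share that express it. The T cell gene Cd3e gave a UMI in 2. Of the mature markers outside the 10, Ccl17 gave a UMI in 28 cells (20.4%). The rule itself fixed Ccr7 and Fscn1, whose medians were 17 and 11 UMIs per cell.

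Cells close to the rule were few. Of the 137, 14 had exactly 2 Fscn1 UMIs, and all 14 carried at least 3 of the 10 markers. Just outside were 20 cells with 1 Fscn1 UMI and Ccr7, of which 75.0% carried at least 3 markers. A further 51 cells had at least 2 Fscn1 UMIs and no Ccr7 (43.1% with 3 markers). The 358 cells with Ccr7 and no Fscn1 were mixed by their markers. Of these, 50 (14.0%) carried at least 3 markers, 178 had at least 2 Cd79a UMIs and 18 at least 2 Cd209a UMIs.

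Macrophage transcripts were found in these cells too. C1qa, a complement gene of macrophages, gave a UMI in 60 of the 137 (43.8%), in 55.2% of Cd209a cells and in 70.2% of cells with at least 2 Cd79a UMIs. The medians behind these shares were 8259, 10369.5 and 8428 UMIs per cell. In 25 Ccr7 Fscn1 cells the C1q genes summed to 5 or more UMIs, with 2, 11, 9 and 3 of them at baseline and in infarct libraries 1, 2 and 3. These cells held between 92.2% and 97.5% of the C1q UMIs of each library. The whole macrophage list of 15 genes summed to between 9117 and 14876 CPM (UMIs scaled to 1 fixed total of non-mitochondrial UMIs per sum) in the infarct libraries, against 9265 to 15708 in Cd209a cells and 57112 to 74434 in all other cells. None of the 15 was at 0, and their part in the results below was not tested beyond the values given without such cells. Those values left out Ccr7 Fscn1 cells of the infarct libraries only. Cd209a cells with 5 or more C1q UMIs (75, 60 and 72 in infarct libraries 1, 2 and 3) stayed in. Only 1 class was thus filtered, and such values are not like for like. Barcodes shared between libraries numbered 26 to 34 per pair, and none belonged to a Ccr7 Fscn1 cell in both libraries of a pair. Shared barcodes of a Ccr7 Fscn1 cell in only 1 library of a pair were not counted. Median depth was 6398.5 UMIs per cell at baseline and 8469.5 to 8556.5 after infarction over all kept cells.

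Ccr7 Fscn1 cells made up a larger share of the sorted cells in each infarct library than at baseline. At baseline 7 of 10238 cells (0.0684%, exact binomial 95% interval 0.0275 to 0.141) met the rule. After infarction the numbers were 67 of 10396 (0.644%, 0.500 to 0.818), 40 of 10782 (0.371%, 0.265 to 0.505) and 23 of 10117 (0.227%, 0.144 to 0.341). The mean of the 3 infarct libraries was 0.414% ± 0.212 (SD, n = 3), 6.06-fold the baseline share. The lower limit of infarct library 3 (0.144) lay just above the upper limit of baseline (0.141). It lay below it with a gate of 1 UMI of each gene (0.168 against 0.180), with a gate of 2 Ccr7 and 3 Fscn1 UMIs (0.129 against 0.141), and without cells over 10% mitochondrial UMIs (0.141 against 0.159). The intervals of infarct libraries 1 and 3 did not overlap each other. With 1 baseline library no test across hearts was possible, and intervals cover counting error only. A share of sorted cells cannot separate more Ccr7 Fscn1 cells from fewer cells of other kinds.

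The other dendritic cells did not show the same direction. Cd209a cells were 3.07% of cells at baseline and 3.06, 1.74 and 2.12% in the infarct libraries. Cells with at least 2 UMIs of Xcr1 and Clec9a together, no Ccr7 UMI and under 2 Cd209a UMIs are called Xcr1 Clec9a cells below. They were 0.469% at baseline and 0.366, 0.102 and 0.168% after infarction. Of these 3 dendritic classes together, Ccr7 Fscn1 cells held 1.90% at baseline (0.766 to 3.87) and 15.8, 16.7 and 9.06% after infarction (13.9% ± 4.20, n = 3). The rule is cut on UMIs and so depends on depth. After thinning each cell to 2000 UMIs the shares were 0.0445% at baseline and 0.440, 0.287 and 0.198% after infarction.

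**Figure D1:**
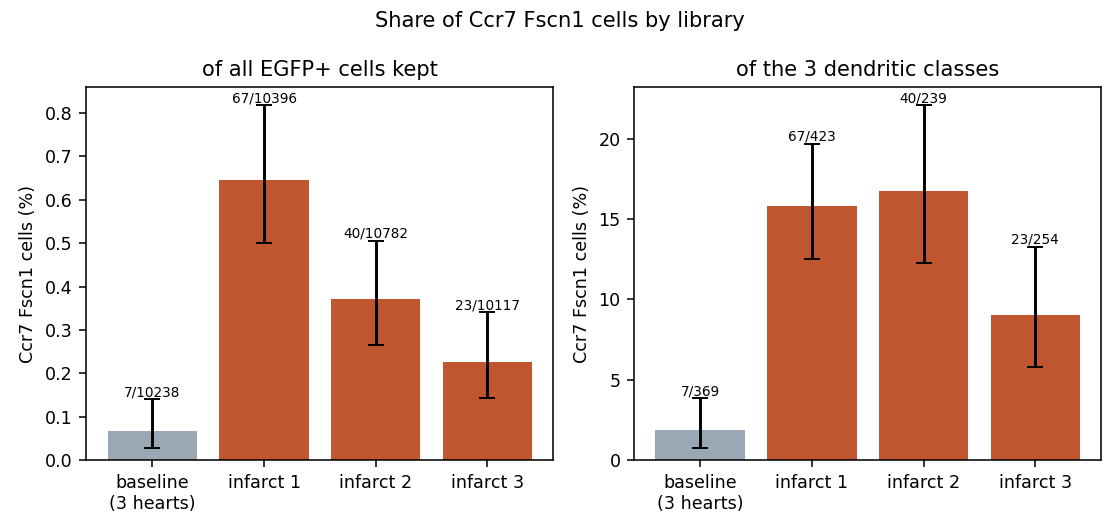
Share of Ccr7 Fscn1 cells in each library (bars, percent) with exact binomial 95% intervals (lines) and the numbers of cells above, of all cells kept (left) and of the 3 dendritic classes (right). The baseline library stands lowest in both panels, at 0.0684% and 1.90%.

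To ask what set Ccr7 Fscn1 cells apart from the more common dendritic cells of the same infarcted heart, UMIs were summed over the cells of each class within each infarct library and compared in edgeR's quasi-likelihood test, with the library as a block. The sums held 67, 40 and 23 Ccr7 Fscn1 cells and 318, 188 and 214 Cd209a cells. A gene was called at a Benjamini-Hochberg adjusted p under 0.01. Of 8133 genes tested, 1030 (12.7%) were higher in Ccr7 Fscn1 cells and 791 (9.73%) were lower. The median log2 difference of all genes was -0.03. Without infarct library 2 the lower calls numbered 440. Samples are hearts, 3 in each class. The test takes each gene's spread partly from a trend over all genes. Small p-values therefore do not measure the spread between 3 hearts alone.

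The genes furthest above Cd209a cells were nearly silent there. Il12b, the p40 subunit of interleukin-12 and interleukin-23, stood at 121, 691 and 533 CPM in the Ccr7 Fscn1 cells of infarct libraries 1, 2 and 3 and gave no UMI in Cd209a cells. That placed it at least 972-fold higher, against a floor of 3 UMIs over the group. On the same floor Tnfrsf4, the costimulatory receptor OX40, was at least 575-fold higher. Also at 0 in Cd209a cells were Apol7c and the nonclassical class I gene H2-M2 (both at least 345-fold), Slco5a1 (at least 288-fold), Clu (at least 264-fold), Lad1 (at least 171-fold) and Synpo2 (at least 169-fold). Near-identical paralogs of Apol7c and Serpinb6b exist, so the split of reads among them is uncertain. Cacnb3, a calcium channel subunit, had 495 UMIs against 2, a ratio of 1764-fold (counting interval 486 to 14608). The ratio was 1775-fold (counting interval 316 to 70384) for Nudt17 and 841-fold (counting interval 148 to 33501) for Tnfrsf9, the receptor 4-1BB. Serpinb6b completed the 12 genes, with a log2 difference of 9.67 ± 0.24 (SE, adjusted p = 1.33e-10). All 12 were picked as called and higher in all 3 libraries, so the lack of overlap between their sums is description only.

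The 12 genes furthest below had functions of several kinds, from lectins to adhesion and monocyte genes. Cd209d, a neighbour family member of Cd209a, gave no UMI in Ccr7 Fscn1 cells and 75.1, 82.6 and 32.5 CPM in Cd209a cells, at least 23.7-fold lower. Mgl2 was lower by a ratio of 197-fold (counting interval 67.5 to 958), and Gpr171 by 99.6-fold (counting interval 27.5 to 823). Clec10a, another galactose-binding lectin, read 1.78, 15.6 and 0 CPM against 523, 459 and 404, a log2 difference of -6.25 ± 0.37 (adjusted p = 5.20e-08). The adhesion genes Cdh1 (E-cadherin) and Ctnnd2 were lower by ratios of 59.8-fold (counting interval 10.7 to 2366) and 46.0-fold (counting interval 12.7 to 381). The decoy interleukin-1 receptor Il1r2 was lower by 39.8-fold (counting interval 11.0 to 329). Ifitm6 (-5.16), Plac8 (-4.65), Cd244 (-4.34) and Ly6c2 (-4.29) also fell on the log2 scale, and Lrmp was lower by a ratio of 21.1-fold (counting interval 7.19 to 103). Without the Ccr7 Fscn1 cells with 5 or more C1q UMIs (all Cd209a cells kept), Ifitm6 read -7.21. These 12 genes were picked in the same way, so the lack of overlap between their sums is again description only.

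**Figure D2:**
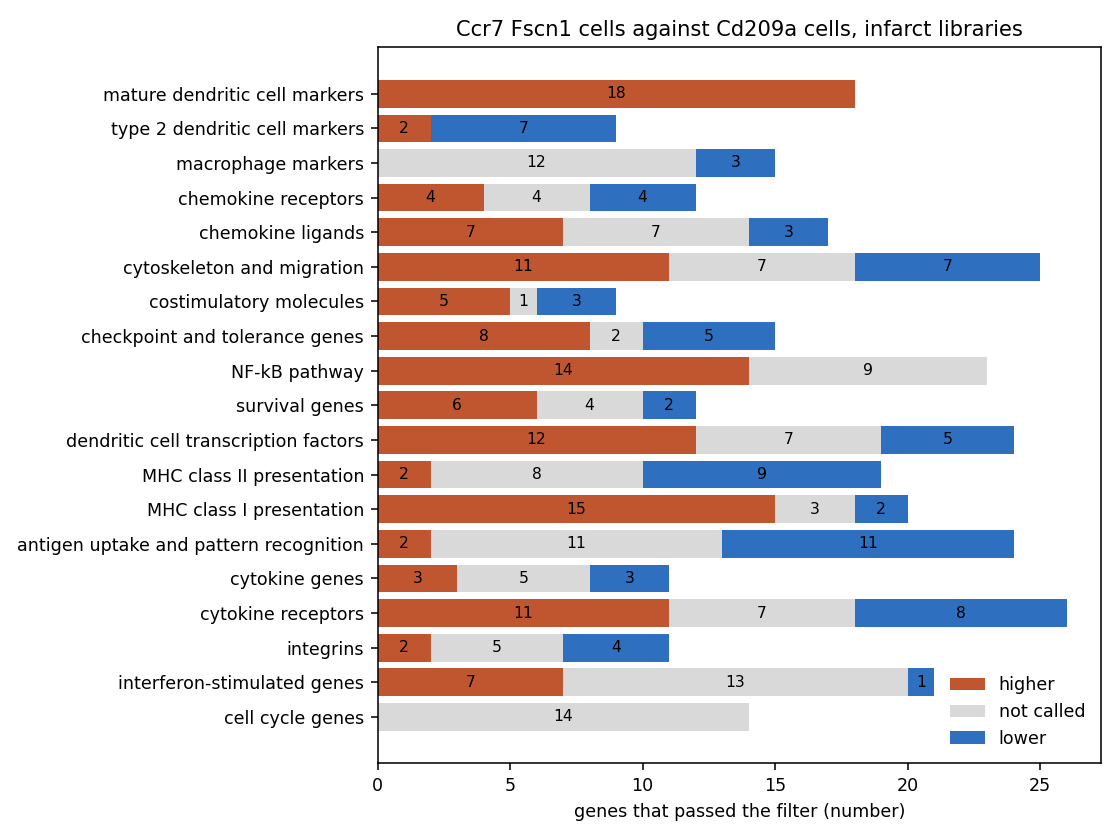
Number of genes (horizontal axis) of each list with at least 9 genes past the filter that were higher, lower or not called in Ccr7 Fscn1 cells against Cd209a cells. All 18 mature markers were higher, 15 of 20 class I genes were higher, and 9 of 19 class II genes were lower. Of all genes tested, 12.7% were higher and 9.73% lower.

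All 18 mature dendritic cell markers that could be tested were higher, beside 12.7% of all genes, with a median log2 difference of 6.14 (-0.03 over all genes). The list was chosen with earlier results of these data known, so its count describes the cells. Tmem123, a surface glycoprotein of these cells, read 2292, 2132 and 2198 CPM against 112, 111 and 86.0, with a log2 difference of 4.60 ± 0.15 (adjusted p = 5.54e-10). Tbc1d4, a Rab GTPase regulator, read 1828, 1540.5 and 1768 against 76.5, 124 and 67.0 CPM (4.48 ± 0.21, adjusted p = 5.72e-09). Both were among the most abundant markers, each in at least 98.5% of the infarct cells.

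Chemokine ligands moved in both directions. Of 17 that passed the filter, 7 were higher and 3 lower (12.7 and 9.73% of all genes), with a median of 1.17. Ccl5, which attracts T cells and monocytes, was the most abundant, with 7455, 6532 and 6745 CPM in Ccr7 Fscn1 cells and 36.4, 125 and 5.48 in Cd209a cells. Its log2 difference was 7.57 ± 0.57 (adjusted p = 3.79e-07), and the lowest Ccr7 Fscn1 value stood far above every Cd209a value. Ccl22 read 443, 401 and 671 CPM against 11.4, 2.87 and 5.90, a difference of 6.29 ± 0.27 (adjusted p = 3.24e-09). Ccl17, the second CCR4 ligand, separated the classes less. It read 96.4, 121 and 197 CPM in Ccr7 Fscn1 cells and 75.4, 14.8 and 78.4 in Cd209a cells, with a difference of 1.51 ± 0.34 (adjusted p = 0.00385). Without infarct library 2 the difference was 0.99 (adjusted p = 0.0225), and without the library block 1.36 (adjusted p = 0.0406).

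Cxcl16, a membrane-bound ligand of CXCR6, was higher by 2.34 ± 0.13 (adjusted p = 2.27e-08) and stood at 1057, 1329 and 1128 against 242, 324 and 224 CPM. The other calls rested on few cells. Cxcl9 gave UMIs in 8 of the 137 cells and Cxcl10 in 16. Without infarct library 2, Cxcl9 was no longer called (log2 1.80, adjusted p = 0.0206), nor was Cxcl10 (0.97, adjusted p = 0.0186). Cxcl10 was also lost without the Ccr7 Fscn1 cells with 5 or more C1q UMIs, all Cd209a cells kept (0.21, adjusted p = 0.727). Ccl7 was carried by infarct library 1, at 162, 12.4 and 8.95 CPM, and without it the difference was 0.11 (adjusted p = 0.936). The lower ligands Ccl4, Ccl6 and Ccl9 attract monocytes and other myeloid cells. Their log2 differences were -1.60, -2.20 and -1.36. Ccl4 stood at -3.81 without the Ccr7 Fscn1 cells with 5 or more C1q UMIs (all Cd209a cells kept).

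Among chemokine receptors other than Ccr7, 4 of 12 were higher and 4 lower (12.7 and 9.73% of all genes). Ccr2, the receptor by which monocytes enter inflamed tissue, read 205, 65.4 and 134 CPM against 1062, 802 and 869, with a difference of -2.60 ± 0.20 (adjusted p = 5.91e-07). Ccr1 (-2.41), a receptor of inflammatory chemokines, was lower as well. Without the Ccr7 Fscn1 cells with 5 or more C1q UMIs (all Cd209a cells kept), Ccr2 read -3.99. Cxcr5, the receptor for the B cell follicle chemokine CXCL13, gave 30 of 137 cells with a UMI and a ratio of 146-fold (counting interval 38.0 to 1247). The oxysterol receptor Gpr183 was higher by 1.53. Other calls were Ccr6 (2.74) and Ptger4 (0.96), higher, and Ccr9, lower by a ratio of 9.82-fold (counting interval 2.67 to 81.9). Without infarct library 1, Ccr6 and Ptger4 read 2.27 and 0.65 (adjusted p = 0.0156 and 0.0442), and without library 2 Ccr9 read -3.73 (adjusted p = 0.0157).

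Costimulatory molecules were mostly higher, with 5 of 9 up and 3 down (12.7 and 9.73% of all genes). Cd40, through which T cells license dendritic cells, read 145, 205 and 210.4 CPM against 36.1, 24.8 and 24.4, a difference of 2.82 ± 0.22 (adjusted p = 6.48e-07). Cd80, a ligand of CD28, was higher by 2.59 ± 0.22 (adjusted p = 1.22e-06), and the maturation marker Cd83 by 1.69 ± 0.17 (adjusted p = 6.45e-06). For each of the 3 genes, picked from the list, the sums of the 2 classes did not overlap, which is description only. Cd86 (0.77) and Icosl (1.12) overlapped between classes and were not called without infarct library 1 (0.61 and 0.70, adjusted p = 0.0482 and 0.124). Tnfsf9 (-1.94), the ligand of 4-1BB, and Cd48 (-1.64) were lower.

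Checkpoint and tolerance genes, many of which restrain T cells, moved both ways. Of 15, 8 were higher and 5 lower (12.7 and 9.73% of all genes), and all 8 were called without each infarct library in turn. Cd274, which encodes PD-L1, read 296, 277 and 251 CPM against 15.2, 11.5 and 11.0, a difference of 4.61 ± 0.17 (adjusted p = 1.37e-09). It gave a UMI in 108 of the 137 cells. Pdcd1lg2 (PD-L2) was higher by 4.13 ± 0.29, Cd200 by 6.78 ± 0.26 and Socs2, a suppressor of cytokine signalling, by 6.88 ± 0.30. Aldh1a2, the retinoic acid enzyme of gut and skin dendritic cells, was higher by 3.76 ± 0.49 at a low level (35.7, 56.0 and 31.3 CPM). Il4i1, an amino acid oxidase that limits T cell growth, read 539, 619 and 918 CPM against 26.1, 2.39 and 7.59. Annotated exons of Il4i1 overlap Nup62 on the same strand, so its count is uncertain. The 5 lower genes included Socs3 (-1.29) and Tgfb1 (-1.12).

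**Figure D3:**
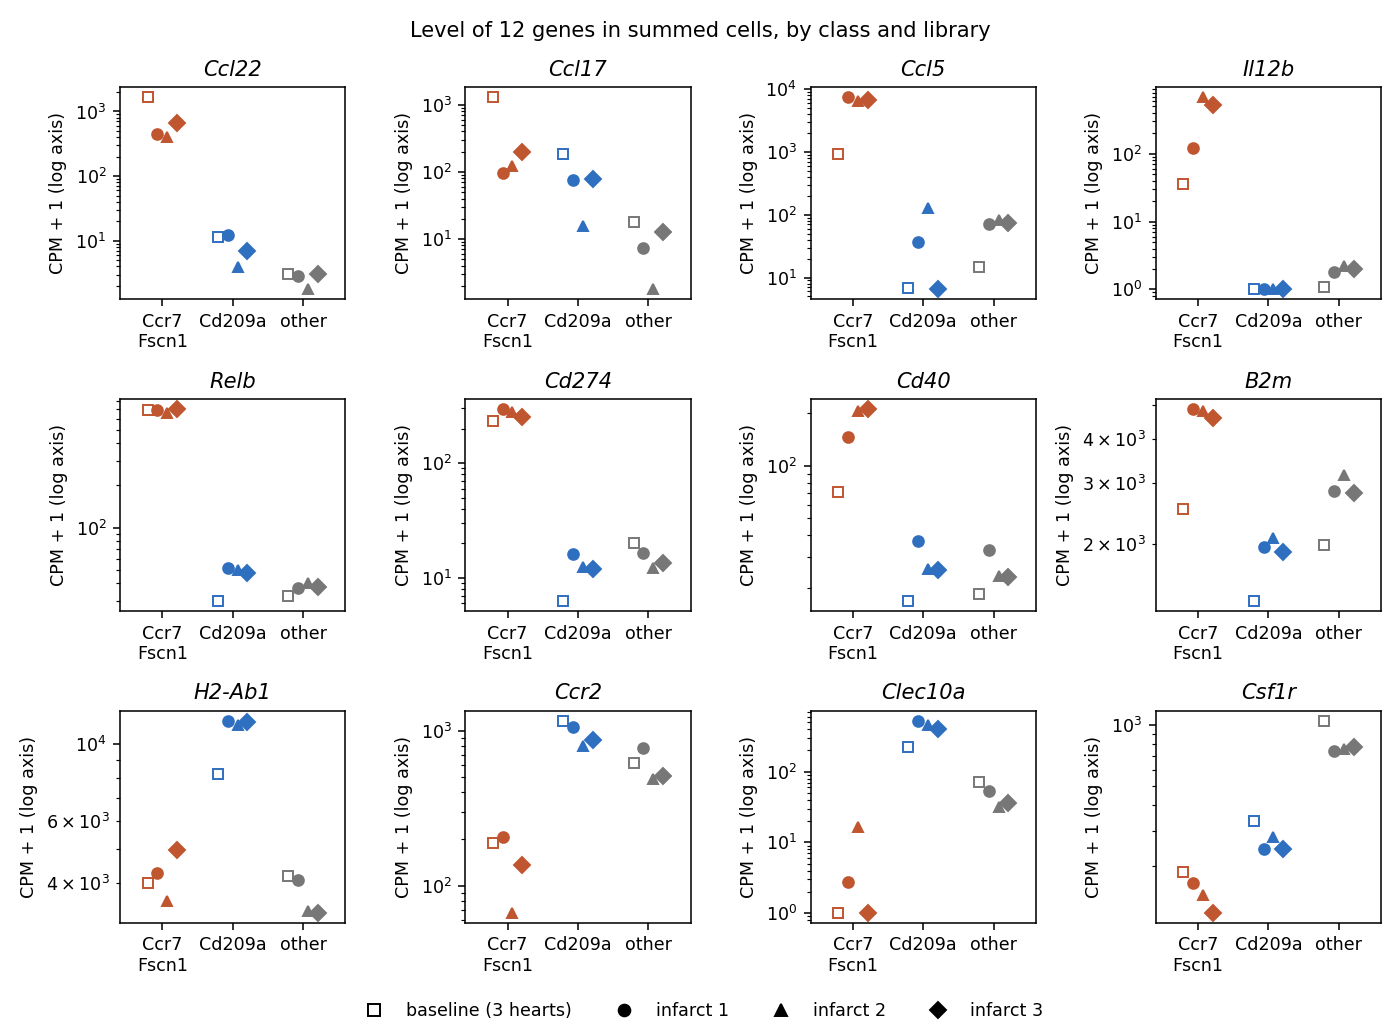
Level of 12 genes (CPM + 1, log axis) in Ccr7 Fscn1, Cd209a and all other cells of each library; open squares are the baseline library and filled symbols the 3 infarct libraries. The 3 infarct values of Ccr7 Fscn1 cells lie above those of Cd209a cells for Ccl22, Ccl17, Ccl5, Il12b, Relb, Cd274, Cd40 and B2m and below them for H2-Ab1, Ccr2, Clec10a and Csf1r.

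NF-kB pathway genes were called in 1 direction against Cd209a cells. Of 23 that passed the filter, 14 were higher and 0 lower (12.7 and 9.73% of all genes), with a median of 1.13. DESeq2 called 13 and 0, and 2 were lower at an unadjusted p under 0.05. Relb read 689, 657 and 703 CPM in Ccr7 Fscn1 cells and 50.1, 48.7 and 46.8 in Cd209a cells, a difference of 3.99 ± 0.14 (adjusted p = 7.07e-10), and gave a UMI in 132 of the 137 cells. Nfkb2 was higher by 2.20 ± 0.16 (adjusted p = 3.41e-07). Map3k14 (NIK), the kinase that starts processing of the NFKB2 protein, was higher by 2.66 ± 0.17 (adjusted p = 1.11e-07). These 3 genes belong to the noncanonical branch. Of the canonical subunits, Rel was higher by 2.32 ± 0.13, while Nfkb1 (0.09, adjusted p = 0.753) and Rela (0.55, adjusted p = 0.0874) were not called. The adaptor Traf1 (2.33) and the inhibitor of apoptosis Birc3 (1.81) were also higher. Of the 14, 11 were called without each infarct library in turn.

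Survival genes of the BCL2 and serpin families were higher in 6 of 12 cases and lower in 2 (12.7 and 9.73% of all genes). Serpinb9, which blocks granzyme B, read 249.9, 560.2 and 528 CPM against 3.23, 9.55 and 3.79 (6.50 ± 0.22, adjusted p = 7.07e-10). Bcl2l14 was higher by 7.07 ± 0.33 and Cflar, an inhibitor of caspase-8, by 2.14 ± 0.15. Bcl2a1b and Bcl2a1d were higher by 2.87 and 2.29, but they are near-identical copies whose reads may be split between them. The 2 lower genes were Bcl2 (-2.17) and Bid (-2.83), neither of them called without infarct library 1 (-1.69 and -3.03, adjusted p = 0.0699 and 0.0450).

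Transcription factors of dendritic cells were higher in 12 of 24 cases and lower in 5 (12.7 and 9.73% of all genes). Irf8 and Batf3, needed for type 1 dendritic cells, were among the higher ones. Irf8 read 535, 1049 and 622 CPM against 149.5, 111 and 93.6, a difference of 2.76 ± 0.21 (adjusted p = 4.73e-07). Batf3 was higher by 2.09 ± 0.15 and Id2 by 2.79 ± 0.15. In the cells with Xcr1 and Clec9a, numbering 38, 11 and 17 in the infarct libraries, Irf8 averaged 1406 ± 322 CPM (SD, n = 3), Batf3 174 ± 76.5 and Id2 833 ± 101. That class fell under 20 cells in 2 libraries, so no test against it was made. Irf4, a factor of type 2 dendritic cells, did not differ beyond its spread (0.30 ± 0.29, adjusted p = 0.474). Etv3 (3.03), Stat4 (3.53) and Nr4a3 (3.43), a nuclear receptor linked to dendritic cell migration, were higher. Klf4 (-0.95) and Zeb2 (-0.87) were lower. Zbtb46, a lineage factor of conventional dendritic cells, read 57.1, 37.3 and 31.3 CPM against 26.4, 20.1 and 27.0 and 1.74 in all other cells. It was not called against Cd209a cells, though it gained the call under 6 alternatives, and was called higher against all other cells.

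Type 2 dendritic markers were mostly lower and type 1 markers split, beside 12.7% of all genes higher and 9.73% lower. Of 9 type 2 markers that passed the filter, 7 were lower and the paired membrane genes Tmem176a (1.30) and Tmem176b (1.08) were higher. Of 6 type 1 markers, Irf8 and Batf3 were higher, Naaa (-2.82) and Wdfy4 (-1.58) lower, and 2 were not called. Wdfy4 read -1.52 (adjusted p = 0.0108) without infarct library 2. Naaa averaged 981 ± 286 CPM in Xcr1 Clec9a cells and 20.5 ± 7.34 in Ccr7 Fscn1 cells. Siglech, a plasmacytoid marker, gave 1 UMI in the 137 cells, against 321 in the infarct Cd209a cells.

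Class I and class II presentation genes went opposite ways against Cd209a cells. Of 20 class I genes, 15 were higher and 2 lower (median 1.32), beside 12.7 and 9.73% of all genes. B2m, the light chain of class I molecules, read 4873, 4796 and 4583 CPM against 1961, 2083 and 1892, a difference of 1.44 ± 0.12 (adjusted p = 1.13e-06). The heavy chain genes H2-K1 (1.45) and H2-D1 (1.00), the immunoproteasome genes Psmb8 (1.45) and Psmb9 (1.50), the peptide transporters Tap1 (1.09) and Tap2 (1.43) and the class I activator Nlrc5 (2.84) were all higher. H2-Q4 (2.32) and H2-Q7 (3.58) belong to a family of close copies and are uncertain. The chaperones Calr (-1.21) and Pdia3 (-1.03) were the 2 lower ones.

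Of 19 class II genes, 9 were lower and 2 higher (median -0.52), beside 9.73 and 12.7% of all genes. H2-Ab1 read 4284, 3560.2 and 4968 CPM in Ccr7 Fscn1 cells and 11622, 11328 and 11511 in Cd209a cells, a difference of -1.26 ± 0.14 (adjusted p = 1.22e-05). H2-DMa, which loads peptides, had a log2 difference of -2.04. March1, a ubiquitin ligase that removes class II molecules from the surface, stood at -2.81. It stood at -4.85 without the Ccr7 Fscn1 cells with 5 or more C1q UMIs (all Cd209a cells kept). H2-Aa (-0.59) was not called without infarct library 1 (-0.58, adjusted p = 0.0486) or without library 2 (-0.42, adjusted p = 0.0298). Cd74, the invariant chain, changed by -0.77 and was not called without library 1 (-0.75, adjusted p = 0.0181). H2-Eb2 was an exception in the list, at 111, 143 and 179 against 5.28, 2.87 and 3.37 CPM (5.26 ± 0.29, adjusted p = 2.43e-08).

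Of 24 receptors and other genes for uptake and pattern recognition, 11 were lower, 2 higher and 11 not called. Of all genes, 9.73% were lower and 12.7% higher. Ly75 (DEC-205), an uptake receptor of mature dendritic cells, went the other way. It read 168, 239.6 and 228 CPM against 3 UMIs in all Cd209a cells, a ratio of 527-fold (counting interval 178 to 2577). Among the lower genes were the Fc receptor chain Fcer1g (-1.38), the inhibitory receptor Fcgr2b (-1.15) and the lysosomal gene Cd68 (-1.51). Of the 11, 7 were called without each infarct library in turn. Without the Ccr7 Fscn1 cells with 5 or more C1q UMIs (all Cd209a cells kept), Fcer1g, Fcgr2b and Cd68 read -2.23, -2.56 and -2.83.

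Cytokine receptors split 11 higher to 8 lower of 26 (12.7 and 9.73% of all genes). Flt3, the growth factor receptor of dendritic cells, read 152, 156 and 121 CPM against 95.9, 87.9 and 70.8, a difference of 0.92 ± 0.16 (adjusted p = 5.26e-04, and 0.176 after thinning to 2000 UMIs), and 6.66 in all other cells. Il2ra (4.00 ± 0.18) and Il7r (3.12 ± 0.17), receptor chains for interleukin-2 and interleukin-7, and Tnfrsf11a (RANK, 3.00 ± 0.20) were higher. Csf1r, the gene behind the reporter of the sort, read 164, 143 and 116 CPM against 242, 278 and 242 and gave a UMI in 31 of the 137 cells. Its difference of -0.64 ± 0.16 (adjusted p = 0.00789) was not called without infarct library 2 (-0.56, adjusted p = 0.0625) or library 3 (-0.58, adjusted p = 0.0190). Without the Ccr7 Fscn1 cells with 5 or more C1q UMIs, but with all Cd209a cells kept, it was -3.08 (adjusted p = 2.47e-08). Among 11 cytokine genes, Il12b, Il15 (3.55) and the interleukin-1 receptor antagonist Il1rn (2.68) were higher, and 3 others were lower.

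Cytoskeletal and migration genes other than Fscn1 were higher in 11 of 25 cases and lower in 7 (12.7 and 9.73% of all genes). Tmsb4x, the actin-sequestering thymosin, was very abundant, at 46030.1, 46236 and 43692 CPM against 20570.5, 19922 and 20626 (1.33 ± 0.14, adjusted p = 7.36e-06). Marcks (2.73), Myo1g (2.61), Adam8 (3.32) and Actb (0.97) were higher, and Rac2 (-2.35) and Coro1a (-0.84) lower. All 11 higher calls were made without each infarct library in turn.

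Of 11 integrins, 2 were higher and 4 lower, beside 12.7 and 9.73% of all genes. The count of higher integrins was thus near that of genes at large. Itga4 and Itgb1, the chains of VLA-4, were higher by 2.25 ± 0.15 (adjusted p = 1.24e-07) and 1.31 ± 0.13 (adjusted p = 5.80e-06). The leukocyte chains Itgam (-2.64), Itgax (-2.54), Itgb2 (-2.79) and Itgb7 (-3.16) were lower. Itgb2, for example, read 30.3, 37.3 and 26.9 CPM against 292, 213 and 218. Itga5 (-0.92 ± 0.38, adjusted p = 0.0805) and Itgav (-0.13 ± 0.28, adjusted p = 0.772) were not called. Against all other cells both were called lower, with 8 of 19 integrins lower and 3 higher (11.7 and 10.2% of all genes). That call of Itga5 did not hold without each infarct library in turn.

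Interferon-stimulated genes were higher in 7 of 21 cases and lower in 1 (12.7 and 9.73% of all genes). Gbp5 (4.28 ± 0.33), Gbp2 (3.27 ± 0.28) and Mx1 (3.56 ± 0.26) were called without each infarct library in turn. Isg15 read 316, 196 and 184 CPM against 139.6, 314 and 53.1 and was not called (0.86, adjusted p = 0.0675). Without infarct library 2 it was called (1.59, adjusted p = 4.90e-04). Of 14 cell cycle genes that passed the filter, edgeR and DESeq2 both called 0 in either direction, and 2 were higher and 2 lower at an unadjusted p under 0.05.

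Markers of other cells were low or like those of Cd209a cells. Of 15 macrophage markers 0 were higher and 3 lower (12.7 and 9.73% of all genes). DESeq2 called 0 and 2, and 4 were higher at an unadjusted p under 0.05. The 4 monocyte markers called, Ly6c2, Plac8 and Ccr2 among them, were lower, and Vcan gave no UMI. The B, T and NK, granulocyte, fibroblast and cardiomyocyte lists summed to at most 103 CPM each in the infarct libraries, and the erythroid list to 0. Fabp4, a fatty acid binding protein of endothelium and macrophages, was the exception. It read 143, 12.4 and 269 CPM against 2.35, 3.34 and 11.0 (4.93 ± 0.40, adjusted p = 8.29e-07) in 18 of the 137 cells, while of the other 5 endothelial genes Kdr gave 3, 3 and 6 UMIs and Pecam1, Cdh5, Flt1 and Egfl7 none.

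Against all other cells of the same infarct library, mostly macrophages, 1331 of 12988 genes (10.2%) were higher and 1525 (11.7%) lower by the same test. The median log2 difference of all genes was -0.27, and values below are not corrected for it. The filter admits genes through the large class alone, and 67 of the lower genes had no UMI in Ccr7 Fscn1 cells. All 18 mature markers were again higher. Of 24 NF-kB genes 18 were higher and 4 lower, the latter Nfkbiz (-0.58), Tnfaip2 (-2.00), Ikbke (-2.71) and Ltbr (-1.43). Without infarct library 1 the lower calls numbered 985.

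The highest differences belonged to Slco5a1 (10.01), Tcf7 (9.72), Tmem150c (9.70), Tnfrsf4 (9.55), Apol7c (9.53), Cacnb3 (9.50), Lad1 (9.49), Nudt17 (9.33), Serpinb6b (9.01), Mreg (8.98), Cacna1s (8.88) and Ly75 (8.73). Tcf7 encodes TCF1, known as a T cell factor, and read 127, 74.7 and 44.8 CPM in Ccr7 Fscn1 cells against 0.103 ± 0.0496 in all other cells (SD, n = 3). It gave a UMI in 53 of the 137 cells and in 0.139% of infarct Cd209a cells. Among 12 T and NK cell genes, 7 gave no UMI in Ccr7 Fscn1 cells of the infarct libraries. The 12 summed to between 8.95 and 24.9 CPM there, against 163 CPM in the 7 baseline cells. All of that baseline sum was Cd8a, with 14 UMIs, and the difference from the infarct libraries was not tested. Cd8a was called higher against all other cells (4.91 ± 0.82, adjusted p = 2.89e-08), at 14.3, 18.7 and 4.48 CPM, and without infarct library 1 it was not (4.37, adjusted p = 0.0139).

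The lowest differences were in genes of monocytes, granulocytes and macrophages. Vcan gave no UMI and was at least 20.2-fold lower. The calgranulins S100a9 and S100a8 were lower by ratios of 54.5-fold (counting interval 15.1 to 449.7) and 39.6-fold (counting interval 11.0 to 327). Folr2, a marker of resident macrophages, changed by -4.88. Saa3 (-4.64), Slpi (-4.62), Clec4e (-4.44), Thbs1 (-4.39), Chil3 (-4.37), Ly6c2 (-4.21), the scavenger receptor Cd36 (-4.18) and the haem oxygenase Hmox1 (-3.94) completed the 12. All 15 macrophage markers and all 7 monocyte markers were lower, beside 11.7% of all genes. Class II genes split 8 higher to 9 lower of 19 (10.2 and 11.7% of all genes), with H2-Aa at 0.83 and H2-Eb1 at 0.93. Without infarct library 3, H2-Aa read 0.59 (adjusted p = 0.0188).

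Cell by cell, Ccl5 was as widespread as the marker genes, while Ccl22, Il12b and Ccl17 were found in fewer cells. Relb was found in 132 of the 137 cells, Il4i1 in 125, Cacnb3 in 124, Cd83 in 122 and Ccl5 in 121. Ccl22 was found in 77 cells, Il12b in 47 and Ccl17 in 28. Of all Ccl17 UMIs in these cells, 73.1% lay in 5 cells, against 60.2% for Il12b, 45.0% for Ccl22, 22.4% for Ccl5 and 8.98% for Relb. The cell richest in Ccl17 was 1 of the 7 baseline cells, with 107 of 249 UMIs.

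Most cells with Ccl17 also carried Ccl22, but not the reverse. Of the 28 cells with Ccl17, 24 had Ccl22 (85.7%), against 48.6% of the 109 without Ccl17, and 53 cells had Ccl22 alone. Of the 47 cells with Il12b, 34 had Ccl22 (72.3%), against 47.8% of the rest. These are counts over cells of 4 libraries that share depth and are given as a description.

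**Figure D4:**
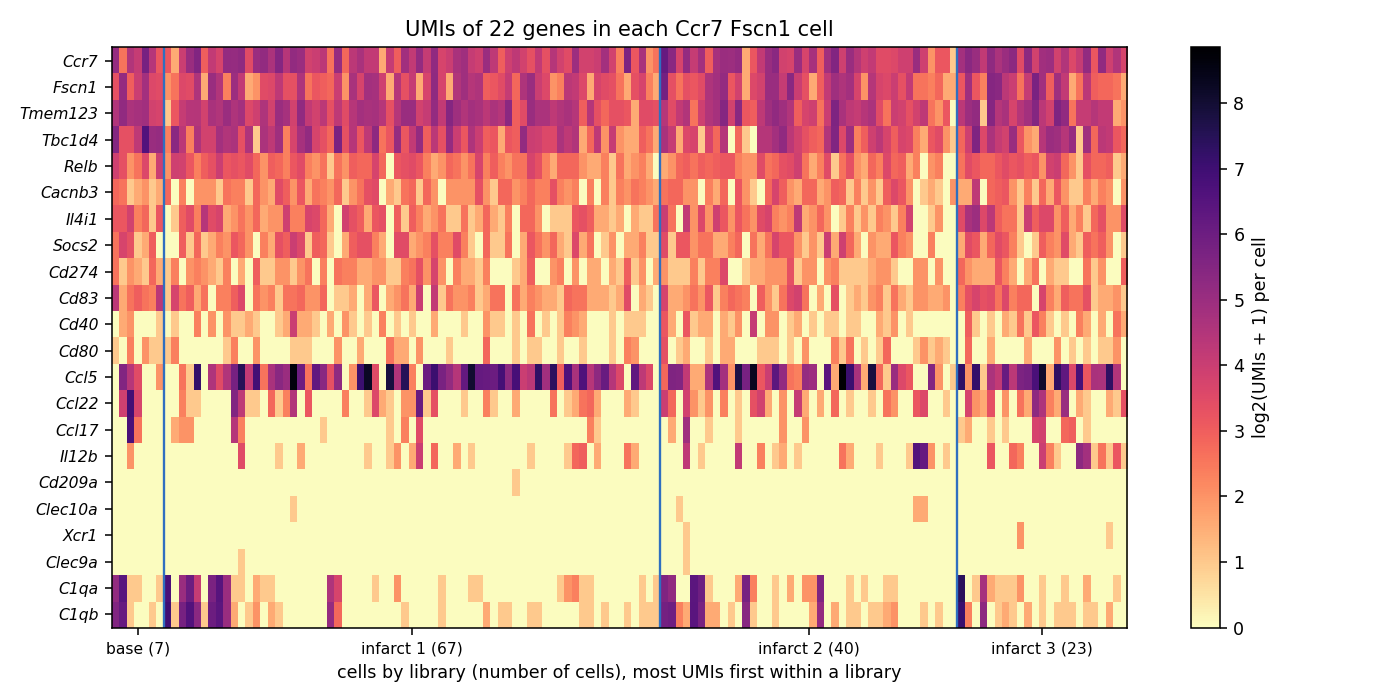
UMIs of 22 genes (rows, log2(UMIs + 1)) in each of the 137 Ccr7 Fscn1 cells (columns, by library and then by falling UMI total). Ccl5 is high in most infarct cells, Ccl17 and Il12b appear in 28 and 47 of the 137, and C1qa and C1qb are concentrated in the 25 cells with 5 or more C1q UMIs.

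Within Ccr7 Fscn1 cells, infarct and baseline levels were set side by side without a test, since the baseline sum held 7 cells and 85699 UMIs, where 1 UMI is worth 11.7 CPM. A gene was counted as different past a 2-fold change, with 1 UMI added to each sum, and with all 3 infarct libraries on the same side. Of 3432 genes with at least 50 CPM in either group, 234 (6.82%) were higher after infarction and 780 (22.7%) lower. With TMM scaling the counts were 429 and 388, so the split between the directions depends on the scaling.

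Of the chemokines, Ccl5 was higher in all 3 infarct sums than at baseline, while the higher baseline level of Ccl17 and Ccl22 rested on 1 cell. Ccl5 read 910.2 CPM at baseline and 7455, 6532 and 6745 in the infarct libraries. Ccl22 read 1680.3 at baseline against 443, 401 and 671, and Ccl17 1307 against 96.4, 121 and 197. The baseline values of Ccl22 and Ccl17 rested on 3 and 2 cells, 1 of which held 118 of 144 and 107 of 112 UMIs. Without that cell, an alternative chosen after seeing the data, Ccl22 read 357 and Ccl17 68.7 CPM at baseline. Both lay below every infarct value, but rested on 26 and 5 UMIs. No interval was set on them, so no direction is read from them. Relb hardly moved, at 688 against 689, 657 and 703 CPM.

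The 8 genes with the largest rise were Spp1, Isg15, Fabp4, Cd72, Cxcl9, Cxcl10, Il12b and Irf7. They are ranked by ratios to few baseline UMIs: apart from Il12b they gave none, where the upper limit of the exact Poisson interval was 43.0 CPM. Single infarct libraries lay under that limit for Fabp4 (143, 12.4 and 269 CPM), Cxcl9 (55.3, 329.9 and 22.4), Cxcl10 (130.3, 224 and 17.9) and Spp1. Cd72 read 146, 156 and 112 CPM. Isg15, an interferon-induced ubiquitin-like protein, stood at 316, 196 and 184 CPM after infarction, and Irf7, an interferon regulatory factor, at 112, 146 and 58.2. Il12b had 3 UMIs at baseline, 35.0 CPM (7.22 to 102), all in 1 cell. Spp1 (osteopontin), at 69.6, 641 and 26.9 CPM, rose from 149.7 to 1314 CPM in all other cells as well (SD 243, n = 3). Of its 206 UMIs in infarct library 2, 128 were in 1 cell, and in infarct library 1 the richest cell held 127 of 177 Isg15 UMIs and 47 of 63 Irf7 UMIs, each gene taken on its own. In infarct libraries 1, 2 and 3, Isg15 rose in all other cells from 59.0 to 125, 192 and 104 CPM.

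The 8 genes with the largest fall were Retnla, Lyve1, Folr2, F13a1, Mgl2, Ccl24, Cd163 and Cbr2, most of them known from resident cardiac macrophages. Retnla had 61 UMIs at baseline (712 CPM, 544 to 914) and none in any infarct library. Of those UMIs, 59 lay in the 2 baseline cells with 5 or more C1q UMIs. For the other 7 genes all baseline UMIs lay in those 2 cells, and in the remaining 5 cells each gave 0. All 8 were abundant in other baseline cells, from 153 CPM for Ccl24 to 1209.7 for F13a1, and were lower in the infarct libraries (13.4 to 159 CPM on average). Apart from 2 Retnla UMIs, the baseline level of these 8 genes came from 2 cells.

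**Figure D5:**
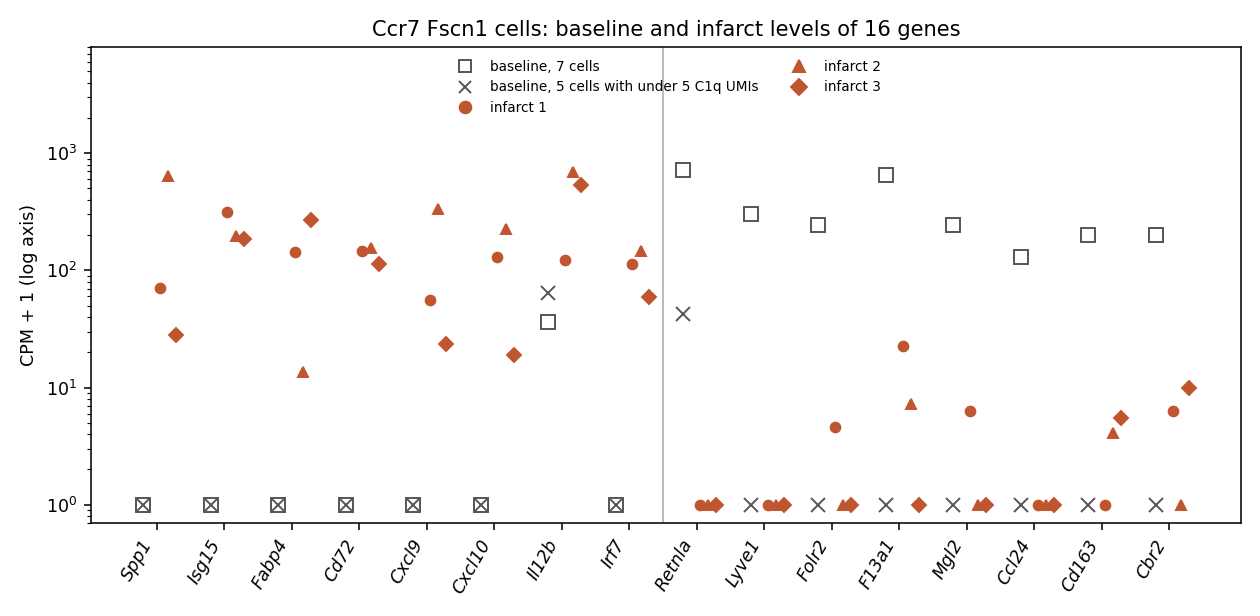
Level (CPM + 1, log axis) of the 8 genes with the largest rise (left) and fall (right) in Ccr7 Fscn1 cells, for the 7 baseline cells (open squares), the 5 baseline cells with under 5 C1q UMIs (crosses) and the 3 infarct libraries. Among the genes on the right, only Retnla stays above 0 in those 5 cells, at 41.7 CPM.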

How the data were processed

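Single-cell RNA sequencing (10x Genomics 3' chemistry) was analysed in 1 baseline and 3 infarct libraries, grouped by the submitters' labels. The authors deposited filtered matrices of UMI counts per gene and cell, made with Cell Ranger on mm10. The matrix headers name software version 3.1.0 and the submitters' processing notes 3.0.1. Kept cells held 70982109, 91848854, 97301304 and 88048742 UMIs in the baseline library and infarct libraries 1, 2 and 3. Depth limits the precision for 7 to 67 cells a sum. The Ccr7 Fscn1 cells, the gene lists and the tests were chosen with earlier results of these data known.

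Counts were summed per library and class. CPM used non-mitochondrial UMIs. Genes passing filterByExpr were tested with edgeR 4.0.16 in R 4.3.3 (quasi-likelihood test, TMM scaling, library as a block, Benjamini-Hochberg over all genes tested, threshold 0.01). The block pairs classes from the same heart. Rule genes were left out of the tests. Named genes were the 12 highest and 12 lowest log2 differences among called genes that moved 1 way in all 3 libraries and averaged 50 CPM or more in their higher class. Mitochondrial, sex-linked, haemoglobin and unnamed gene models were not ranked. Against baseline 8 each way were named, with no test, and genes of the lists were named besides. A fold against a class at 0 was set against 3 UMIs over the group. Of 435 listed genes in 29 lists, 4 were not analysed here. Scripts were tested on simulated data with known changes. Alternatives were DESeq2 1.42.0, other scalings, filters, gates, thinning to 2000 UMIs, doublet removal and leaving out each library. Scrublet (scanpy 1.11.5) set a threshold that marked 226 cells at baseline and 1 in the infarct libraries together, so it had not worked there, and the highest scores at the expected rate were removed as an alternative only. Of the 137 cells, 17 had such scores (12.4%, against 8.34% of all cells). Cell labels come from these gates, since no annotation was used here. Values of a few listed genes are not reported here.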

Additional observations from a re-analysis of the deposited data

Results flagged for a closer look

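In 3 genes the baseline library showed a difference between Ccr7 Fscn1 cells and Cd209a cells opposite to that in every infarct library. The change of direction was not tested, since there was 1 baseline library with 7 Ccr7 Fscn1 cells, and values are log2 differences of CPM with 1 UMI added. Fabp4 was lower at baseline (-3.30, from 0 against 415 UMIs) and higher in the infarct libraries (2.03 to 5.78). Cxcl10 was lower at baseline (-2.16, from 0 against 187 UMIs) and higher after infarction (0.79 to 1.09). Il1r2 was higher at baseline (1.37, from 3 UMIs in 1 cell against 64) and lower after infarction (-5.22 to -2.68).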

How the results depend on the processing

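Against Cd209a cells, thinning each cell to 2000 UMIs gave 567 higher and 478 lower genes. Lower genes numbered 492 by DESeq2's Wald test and 1245 with no filter on low counts. Leaving out 1 infarct library gave 753 to 1028 higher and 440 to 805 lower genes. Against all other cells, thinning gave 581 higher and 815 lower genes, and DESeq2's Wald test 812 lower. Leaving out 1 library gave 985 to 1236 lower genes. Fewer samples or UMIs enter these fits, and for the other settings the cause was not tested. Without the replicate block, that is without the pairing of classes within a heart, 1074 genes were higher and 853 lower against Cd209a cells, and 1254 and 1232 against all other cells. Among genes named above, Ccl17, Ccl7, Cxcl10, Ccr9 and Cd86 then lost the call against Cd209a cells (adjusted p = 0.0150 to 0.258), and Vcan and Saa3 against all other cells (adjusted p = 0.0154 and 0.0210).

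For infarct against baseline, TMM scaling gave 429 higher and 388 lower genes, thinning 133 and 2141, a minimum of 100 CPM 129 and 375, and 5 UMIs added 38 higher. Ccl7 turned to -1.57 against Cd209a cells with at least 2 Ccr7 and 3 Fscn1 UMIs (adjusted p = 0.0595), and Cxcl9 ranged from -0.0181 to 2.98 against all other cells when 1 infarct library was left out, lowest without library 2. The share of Ccr7 Fscn1 cells stayed within 1 SD under each alternative run, though under 3 of them the intervals of baseline and infarct library 3 overlapped, and leaving out 1 infarct library gave means of 0.299% to 0.508%. Of the single-gene values, 5609 kept their direction and side of the threshold, 162 lost the call, 45 gained it and 2 turned. The setting that held both classes to cells with under 5 C1q UMIs was chosen after seeing the data. The single-gene values given above without cells with 5 or more C1q UMIs are not from it. The comparison with Xcr1 Clec9a cells and the fit over all 4 libraries were not run, since a class held under 20 cells in a library.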
